A study of Mus musculus with 15 samples.

Results

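The 5 control libraries of this series hold primary mouse myoblasts that had received a control small interfering RNA (siCtrl) and had been differentiated for 1 day; they were taken by their sample labels and are 5 of 15 libraries. The other 10 libraries, 5 given small interfering RNA against Lmod1 (siLmod1) and 5 against Sirt1 (siSirt1), came from the same strain (C57BL/6J, wild type) at the same time. The small interfering RNA was delivered with a lipid reagent. The labels number the libraries of each group 1, 2, 3, 4 and 7 without saying what a number marks; libraries that share a number are taken to be of the same primary line and called a line here. The labels give no age or sex of the mice and do not say whether a line pools several of them. Each line has 1 siCtrl library, so a line and its library cannot be told apart within siCtrl, and the spread over the 5 is the spread between these samples. Lmod1, a leiomodin that starts actin filaments, stood at 18.4, 32.6, 29.8, 4.46 and 33.9 TPM in siCtrl lines 1, 2, 3, 4 and 7 and at 2.01, 4.25, 3.3, 1.08 and 3.3 TPM in siLmod1, lower in 5 of 5 lines. Sirt1, a deacetylase that uses NAD, stood at 16.1, 9.79, 13.5, 15.1 and 20.9 TPM in siCtrl and at 3.07, 2.02, 2.21, 6.71 and 6.06 TPM in siSirt1, lower in 5 of 5 lines.

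Myoblasts are the dividing precursors of muscle fibres. When growth factors are withdrawn they leave the cell cycle, switch on the transcription factor myogenin after MyoD, fuse into multinucleate myotubes and build sarcomeres. The contractile proteins come as developmental, slow and fast isoforms, and muscle that is just forming is known for mixing developmental, cardiac and adult forms.

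The siCtrl libraries held 26097889 to 33601761 counts, and mitochondrially encoded genes took 1.92% to 2.73% of them. Values below are the authors' TPM (a level per length, scaled to the library) in lines 1, 2, 3, 4 and 7 in that order unless another scale is named. A floor of 3 counts was worth 0.0893 to 0.115 CPM (counts scaled to the library, not per length). At 1 TPM or more, 11988 genes were found in all 5 libraries, 10596 of them protein coding. The library of line 4 stood apart from the others in most of what follows, so counts are also given without it. The 3 markers of the cells were abundant in every library: MyoD (Myod1) was at 1638, 1306, 1102, 1043 and 1437 TPM, myogenin (Myog) at 4417, 4516, 4511, 1599 and 6362 TPM and the long noncoding RNA H19 at 38281, 46835, 29172, 15335 and 48159.9 TPM.

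A few genes made up much of the RNA. The 50 genes with the highest mean TPM took 26.8 ± 2.29% of all TPM (SD, n = 5), from 24.1% in line 4 to 29.3% in line 2, and the first 10 took 13.1 ± 1.83%. H19 (mm10 chromosome 7, 142575529 to 142578143), an imprinted RNA that yields no protein and carries the precursor of miR-675, had the highest mean, 35556 ± 13630 TPM (SD, n = 5). It was lowest in line 4 and highest in lines 2 and 7.

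The 25 genes that follow from ranking the mean TPM, with mitochondrially encoded genes and predicted models left out, fall into a few groups. Contractile genes were 9 of them: Acta1 (skeletal actin), Actc1 (cardiac actin), Acta2 (smooth muscle actin), Mylpf (fast regulatory light chain), Myh3 (embryonic myosin heavy chain), Tnnc1, Tnnt3, Tpm2 and Myl6 (a light chain of nonmuscle and smooth muscle myosin). Acta1 was at 17089, 15424, 12241, 8955 and 16367 TPM and Mylpf at 9601, 13827, 10247, 4412 and 14793 TPM, with line 4 lowest for both. The translation genes Eef1a1, Eef2, Rplp0, Rplp1 and Rps12 were also among the 25, as were Gapdh and Aldoa of glycolysis. The remaining genes were H19, Myog, Cdkn1a, Fth1 (ferritin heavy chain), Lgals1 (galectin 1), Tmsb10 (an actin monomer binder), Cd63, Hsp90ab1 and Vim (vimentin). Vim was at 1565, 1325, 1290.0, 6012 and 2605 TPM, and the line 4 library was more than any other. Line 4 was the lowest of the 5 for 13 of the 25 and the highest for 11, against 29.7% and 34.7% of all genes at 10 CPM or more.

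**Figure D1:**
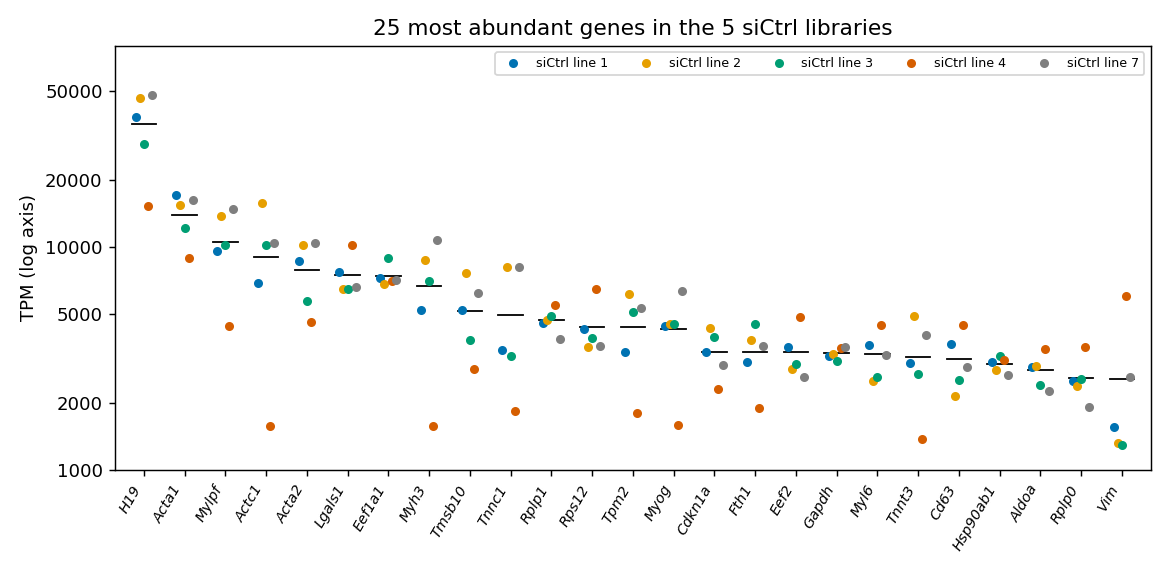
TPM (log axis) of the 25 most abundant genes in each siCtrl library; dots are libraries coloured by line and the bar is the mean. H19 spans 15335 to 48160 TPM, and line 4 (dark orange) lies lowest for the sarcomere genes and highest for Vim, Lgals1 and Rps12.

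Embryonic myosin dominated the heavy chains. Myh3 held 84.9 ± 8.09% (SD, n = 5) of the TPM of the sarcomeric myosin heavy chains, 70.7% in line 4 and up to 90.7% in the others. It stood at 5211, 8755, 7057, 1575 and 10800.5 TPM. Myh1, the fast IIx chain, was at 421, 453, 569, 595 and 566 TPM, a narrow range in which line 4 was highest. Myh8, the perinatal chain, was at 194, 537, 449.8, 39 and 369 TPM and Myh7, the slow chain, at 19.3, 186, 28.5, 4.57 and 135 TPM, and both were lowest in line 4. Myh4 (3.14 to 29.3 TPM) and Myh2 (1.42 to 5.18 TPM), the other adult fast chains, were low in all 5. Myh3 thus exceeded Myh1 by 2.65 times in line 4 and by 12.4 to 19.3 times in the other 4 libraries. Myh9, the main nonmuscle chain, was at 159 to 301 TPM. Myh10 was at 14.9 to 34.1, Myh7b at 7.75 to 39.4 and Myh13 at 0.521 to 2.24 TPM.

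The troponins were a mixture of slow, cardiac and fast forms. Tnnc1, the calcium-binding subunit of slow and cardiac muscle, was at 3471, 8158, 3248, 1840.2 and 8166 TPM against 844, 767, 792, 319 and 782 TPM for the fast form Tnnc2. Among the inhibitory subunits the slow form Tnni1 (1397, 2443, 1890.0, 626 and 2203 TPM) was above the fast form Tnni2 (329.8, 454, 275, 155 and 381 TPM) in every library. Among the subunits that bind tropomyosin the order was the reverse, with the fast form Tnnt3 at 3034, 4903, 2699, 1382 and 4053 TPM. Tnnt1 (slow) was at 1160.4, 1712, 1202, 294 and 859 TPM and Tnnt2 (cardiac) at 812, 1420.0, 1234, 201 and 1250.0 TPM. Cardiac Tnni3 reached at most 1.73 TPM. All 7 troponins at 10 CPM or more were lowest in line 4, against 29.7% of all genes at that level.

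Cardiac and skeletal actin were both abundant. Actc1 stood at 6899, 15753, 10274, 1583 and 10440.3 TPM and Acta1 made up 85.0% of the sarcomeric pair in line 4 but 49.5% in line 2. Acta2 was at 8626, 10182, 5740.0, 4608 and 10433 TPM. These 3 actins are close paralogs, and the labels do not say how reads shared between them were counted, so their split is uncertain. The nonmuscle actins went the other way: Actb was at 864, 587, 622, 1571 and 1187 TPM and Actg1 at 515, 309, 364, 1179.8 and 638 TPM, with line 4 highest for both. Actg2 stayed at 0.696 to 9.56 TPM.

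Of the light chains, Mylpf took a steady 70.4 ± 1.30% (SD, n = 5) of the sarcomeric family. Myl1, the fast essential chain, was at 2346, 1949.7, 1341, 1053 and 2217 TPM and Myl4, the embryonic and atrial chain, at 921, 2051, 1666, 259 and 1815 TPM. Myl6b was at 1023, 1961, 1519.5, 433 and 1755 TPM and Myl6 at 3639, 2498, 2627, 4485 and 3274 TPM. The regulatory chains of nonmuscle myosin, Myl12a and Myl12b, were at 635 to 1008 and 25.9 to 118 TPM. Myl9, of smooth muscle, was at 229.7, 32.8, 132, 90.8 and 390.2 TPM, lowest in line 2. Slow Myl2 was highest in line 2 at 7.06 TPM, and Myl3 and Myl7 were near 0.

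Tropomyosin RNA came mostly from Tpm2 (3377, 6187, 5121, 1807 and 5347 TPM) and Tpm1 (1397, 1095, 1293, 1059 and 1165 TPM). Tpm1 was steady while Tpm2 was lowest in line 4. Tpm4, of the cytoskeleton, was at 185, 105, 115, 597 and 284 TPM and Tpm3 at 111, 105, 89.7, 113 and 103 TPM, and line 4 was highest for both. Among the proteins that nucleate or cap the slow ends of actin filaments, Lmod3 (671, 938, 850.3, 428 and 905 TPM) was above Lmod2 (257, 328, 264, 112 and 301 TPM). Lmod1 made up the smallest share of the 3 leiomodins in each library. Tmod1, the capping protein of striated muscle, was at 119, 222, 196, 66.3 and 127 TPM, with Tmod3 at 4.61 to 8.61 TPM and Tmod2 and Tmod4 at most 1.5 TPM. All 7 sirtuins, the deacetylase family of Sirt1, were found at 1 TPM or more in every library. Sirt2, a mostly cytoplasmic member, was highest at 85, 79.7, 72.1, 41.4 and 76.1 TPM. Sirt6, Sirt4, Sirt1 and Sirt5 had means of 19.8, 15.6, 15.1 and 13.8 TPM and ranges that overlapped. Sirt7 (6.01 to 8.93 TPM) and the mitochondrial Sirt3 (4.12 to 5.67 TPM) were lowest.

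**Figure D2:**
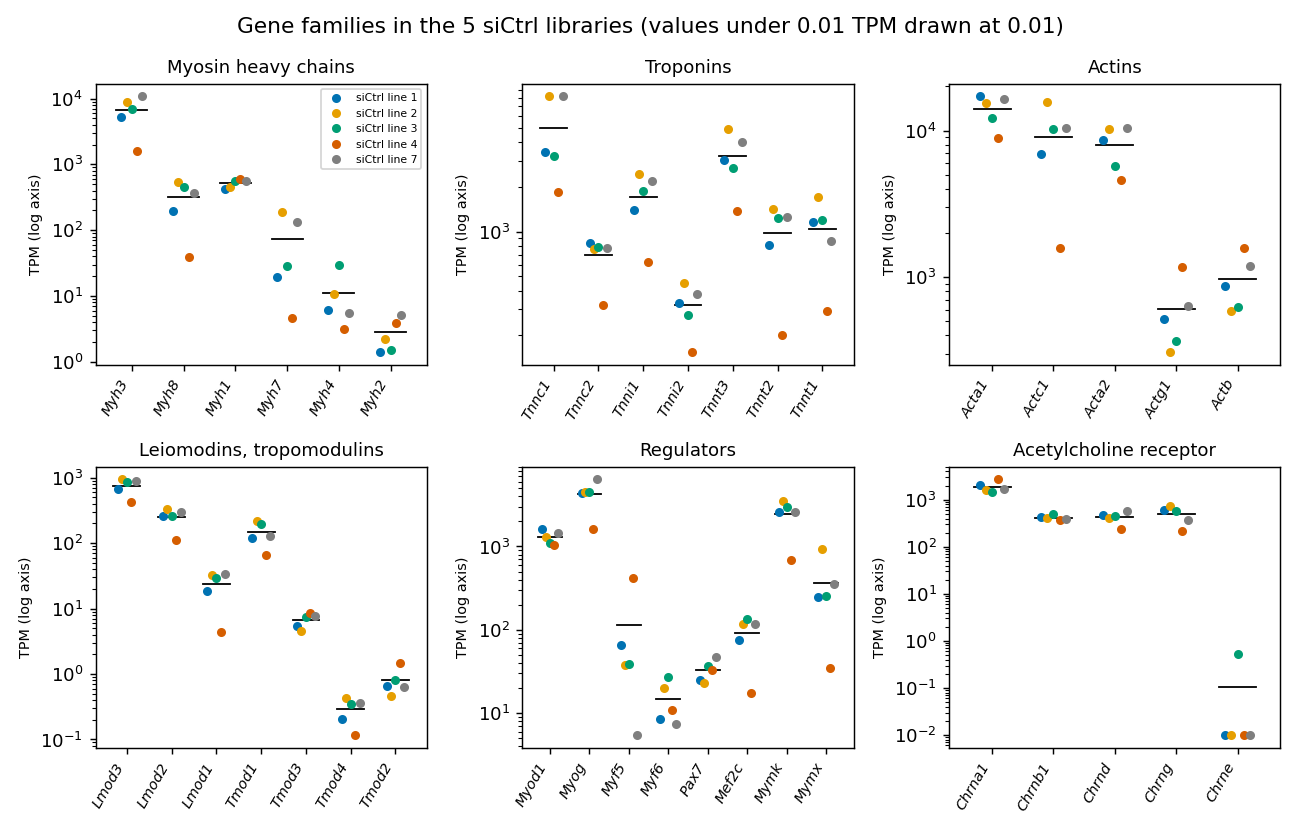
TPM (log axis) of 6 gene families in each siCtrl library; dots are libraries coloured by line, bars are means, and values under 0.01 TPM are drawn at 0.01. Myh3 lies above the other heavy chains in all 5 libraries, Tnnt3 above Tnnt1 and Tnnt2, and Myf5 spans 5.49 to 422 TPM.

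Genes of the Z-disc, M-band and thick filament were led by Des (desmin, 2480.0, 2153, 1984, 3089 and 2159 TPM), Mybph (1402, 2631, 2337, 645 and 1519 TPM) and the small heat shock protein Cryab (1416, 1469, 1595, 1763 and 1688 TPM). Des and Cryab varied 1.82 and 1.36 times on the CPM scale. Ankrd1, which responds to stretch, was at 1062, 435, 440.2, 1730.4 and 1397 TPM, and Flnc (filamin C) at 648, 889.9, 765, 1355 and 1209 TPM. Actn2, the Z-disc actinin of all striated fibres, was at 329.9, 936, 1187, 68.7 and 807 TPM, 14.8 times lower in line 4 than in line 3 on the CPM scale. Of 27 members of this list at 10 CPM or more, 23 differed at least 2 times between the highest and lowest siCtrl library, as did 29.7% of all genes at that level; without line 4 the count was 16 of 27, against 15.5%. Of 18 calcium handling genes at that level 15 differed at least 2 times, and 6 without line 4, against the same shares of all genes. Line 4 was the lowest library for 14 of the 18, against 29.7% of all genes at that level. Casq2, the cardiac calsequestrin, was at 829, 1830, 1424, 320.4 and 1472 TPM and took 87.6% to 94.9% of the calsequestrin pair. The fast calcium pump Atp2a1 was at 798, 1153, 1124, 117 and 742 TPM and the slow pump Atp2a2 at 508, 578, 552, 467 and 544 TPM. The fast pump was above the slow one in lines 1, 2, 3 and 7 and below it in line 4 (ratio 0.251). Srl was at 820.5, 1560.3, 1069.8, 256 and 1145 TPM, Cacng1 at 840.3, 1039.7, 856, 391 and 743 TPM and Jsrp1 at 867, 782, 593, 836 and 616 TPM.

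The acetylcholine receptor was of the fetal type. Chrna1, the subunit that binds the transmitter, was at 2041, 1649, 1476, 2702 and 1709 TPM, and Chrnb1 and Chrnd were at 424, 406, 503, 364 and 396 and 480.0, 419, 461, 243 and 577 TPM. The fetal subunit Chrng was at 595, 735, 572, 222 and 373 TPM, whereas the adult subunit Chrne reached 0.524 TPM in line 3 and was listed at 0 in the other 4. Musk, the kinase that gathers the receptors, was at 179.6, 169, 216, 564 and 158 TPM and Rapsn, its scaffold, at 337, 399, 341, 217 and 374 TPM. Line 4 was highest for Chrna1 and Musk and lowest for Chrng, Chrnd and Rapsn.

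Energy genes held both muscle and general isoforms. Gapdh (3246, 3313, 3089, 3542 and 3569 TPM) was among the steadier abundant genes. Ldha was at 1219, 1726, 1149, 2785 and 1034 TPM and Pkm at 1466, 1214, 1430.0, 2774 and 1041 TPM, both highest in line 4. Muscle enolase Eno3 (1172, 1751, 1365, 942 and 1547 TPM) and the general form Eno1 (886, 1098, 1008, 1662 and 934 TPM) stood in the opposite order in line 4. Brain creatine kinase Ckb (1566, 1298, 1428, 565 and 1218 TPM) was 2.82 to 5.69 times the muscle form Ckm. Myoglobin (Mb), the oxygen store, was at 1198, 868, 829, 602 and 546 TPM. Slc6a8, the creatine transporter, was at 87.8 to 129.5 TPM. The glucose transporter of adult muscle, Slc2a4, was at 6.33, 15.1, 20.2, 1.3 and 17 TPM, below the general form Slc2a1 at 52.4, 61.1, 59, 167 and 45.2 TPM in each library.

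Of 42 myogenic regulators 34 were at 1 TPM or more in all 5 libraries and 3 under 1 TPM in all 5. MyoD varied 1.59 times and myogenin 3.71 times on the CPM scale, and myogenin exceeded MyoD by 1.53 times in line 4 and by 2.70 to 4.43 times in the others. Myf5, the earliest factor of the family, was at 65.3, 38, 39.2, 422 and 5.49 TPM: line 4 was high, line 7 low and the other 3 lay between. Myf6, the late factor, was at 8.58, 19.8, 27, 10.9 and 7.39 TPM. Mef2c, a partner of these factors, was at 76.1, 117, 137, 17.4 and 117 TPM, lowest in line 4, while Mef2a (133, 150.5, 165, 138 and 134 TPM) and Mef2d (142, 201, 190.2, 121 and 111 TPM) varied less. Pax7, the satellite cell factor, was still present at 24.9, 23.3, 36.5, 33.2 and 46.7 TPM, and Pax3 was at 0.759 to 2.73 TPM. Tead1 was at 76.4, 88.3, 86.2, 70.8 and 94.3 TPM and Tead4, a target of MyoD, at 163, 303, 229, 50.6 and 247 TPM. The partners of MyoD from the E protein family, Tcf3, Tcf12 and Tcf4, had means of 55.6, 47.1 and 24.2 TPM. Of the Id proteins, which sequester those partners, Id1 was at 207, 55.7, 142, 134 and 260.4, Id2 at 224, 60.7, 66.3, 113 and 97.6 and Id3 at 173, 46, 122, 169.8 and 279 TPM, and line 2 was lowest for each. The RNA-binding regulators Rbm24 (377, 399, 331, 397 and 487 TPM) and Celf1 (137, 155, 151, 142 and 167 TPM) were steady. Msc, a repressor of MyoD, reached 0.908 and Twist2 1.3 TPM, both in line 4.

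The Myog promoter is printed because myogenin is the regulator with the highest level here. It is the RefSeq window of 300 bases around the gene's start (GRCm38.p6, chr1:134289754-134290053, + strand), with matches to CANNTG, the core of the E-box that MyoD and myogenin bind, in capitals. This motif reads the same on both strands, and 72.3% of 32851 such windows hold it.
Myog promoter: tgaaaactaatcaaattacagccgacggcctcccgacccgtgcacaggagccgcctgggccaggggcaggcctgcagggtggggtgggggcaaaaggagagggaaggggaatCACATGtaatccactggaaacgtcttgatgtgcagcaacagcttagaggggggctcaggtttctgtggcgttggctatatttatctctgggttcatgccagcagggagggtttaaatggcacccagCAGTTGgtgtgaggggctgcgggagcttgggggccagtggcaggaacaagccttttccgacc
The 2 matches start 138 and 12 bases before the start of the gene.

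Fusion genes were high. Mymk (myomaker) was at 2579.9, 3507, 2978, 692 and 2609.6 TPM and Mymx (myomerger) at 250.4, 932, 252, 34.8 and 356 TPM. These are the 2 membrane proteins that myoblasts need to fuse, and both were lowest in line 4 and highest in line 2. Cdh15 (M-cadherin, 533, 636, 508, 461 and 856 TPM), Ncam1 (580.2, 532, 547, 420.4 and 508 TPM) and the tetraspanin Cd81 (619.9, 618, 570.2, 723 and 574 TPM) varied less. Cav3 was at 559.6, 841, 736, 119.8 and 799.5 TPM. Of 22 fusion genes at 10 CPM or more, 14 were lowest in line 4, against 29.7% of all genes at that level. At least 2-fold differences were found for 10 of the 22, also against 29.7% of all genes. Without line 4 the count was 3 (13.6%), near the share of all genes (15.5%).

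Arrest genes were high and cycling genes low. Cdkn1a (p21), which stops the cell cycle, was at 3373, 4359, 3963, 2300.4 and 2961 TPM. The growth arrest gene Gadd45g was at 424, 335, 268, 577 and 564 TPM and Ccnd3, the cyclin that stays on in differentiating muscle, at 135, 172, 233, 44.3 and 219 TPM. Cdkn1c (p57), an imprinted inhibitor of the cycle, was at 6.42, 109, 108, 0.345 and 96.6 TPM. It was thus low in lines 1 and 4 and high in the other 3. The proliferation marker Mki67 was at 10.5, 15.5, 3.17, 4.43 and 40.7 TPM, 72.7 times under p21 in line 7 and 1250 times under it in line 3. The summed level of 30 genes of mitosis and DNA replication was 642, 367, 241, 468 and 769 TPM. Of their 21 members at 10 CPM or more, 19 were lowest in line 3, and 12 were highest in line 7 and 6 in line 1. The shares of all genes at that level were 19.4%, 19.5% and 12.6%. Rrm2, needed to make DNA precursors, led them at 205, 64.1, 47.7, 110.2 and 125 TPM.

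Satellite cell and surface genes were led by Itga7, the laminin receptor of muscle, at 1064, 588, 506, 2843 and 702 TPM, and its partner Itgb1 at 699.9, 525, 613, 1286 and 705 TPM. The growth factor receptors Fgfr1 and Met were at 45.3, 31.7, 68.5, 155 and 43.7 and at 42.7, 26.7, 37.4, 124 and 37.8 TPM. Line 4 was the highest library for these 4 genes. Of 28 growth factor receptors at 10 CPM or more, however, it was highest for 6 and lowest for 14, against 34.7% and 29.7% of all genes. Erbb3, a neuregulin receptor, ranged from 33.2 TPM in line 4 to 331 TPM in line 2. Of the ligands, Igf2 was first and is given below with H19. Fst, the inhibitor of myostatin and activin, was at 249, 628, 237, 112 and 497 TPM and Tgfb3 at 308, 422, 287, 246 and 379 TPM. Fgf21 was at 149, 56, 108, 54.4 and 64.6 TPM and Vegfb at 96.4, 76.1, 89.9, 72.9 and 78.4 TPM. The matrix genes Sparc (1439.6, 942, 1229, 1836 and 1724 TPM), Timp2 (696, 665, 689, 803 and 640.0 TPM) and Hspg2 (328, 318, 457, 239.9 and 373 TPM) were high in all 5, whereas Thbs1 was at 505, 68.5, 80.8, 592 and 197 and Col5a2 at 347, 56.4, 136, 542 and 212 TPM, lower in lines 2 and 3.

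Imprinted genes were among the most variable lists: 12 of 13 at 10 CPM or more differed at least 2 times and 9 at least 4 times, against 29.7% and 10.1% of all genes at that level. Without line 4 the counts were 10 and 6 of 13, against 15.5% and 3.46%. H19 and Igf2, the growth factor next to it (mm10 chromosome 7, 142650766 to 142666816), are neighbours that share enhancers and are read from opposite parental copies. Igf2 stood at 1368, 334, 4541, 154 and 620.3 TPM, so the ratio of H19 to Igf2 was 28.0, 140.4, 6.42, 99.5 and 77.6. H19 differed 3.03 times between its extremes on the CPM scale and Igf2 25.2 times. Peg3 was at 246, 361, 444, 118 and 324 TPM, Mest at 367, 178, 187, 48.9 and 285 TPM and Peg10 at 160.1, 241, 219, 38.4 and 350.2 TPM, each lowest in line 4. The mature forms of miR-675 are shown because their precursor lies inside H19 (RefSeq, GRCm38.p6, - strand, chr7:142577112-142577133 and chr7:142577078-142577099). Capitals mark the seed, bases 2 to 8.
miR-675-5p: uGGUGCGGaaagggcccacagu
miR-675-3p: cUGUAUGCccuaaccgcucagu
These libraries hold polyadenylated RNA, so the mature forms were not measured here.

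Most markers that define other cell types were low, while a few abundant genes carried the sum of some full lists. Of 6 defining fibroblast markers 4 were under 1 TPM in all 5 libraries, and their sum was 1.07 to 8.30 TPM. The full fibroblast list of 14 genes summed to 261.5 (line 2) to 655 TPM (line 4), mostly Gsn (gelsolin, 282, 209, 282, 504 and 151 TPM) and Col3a1 (a matrix collagen, 94.8, 36.9, 146, 133 and 165 TPM), with 6 members under 1 TPM in all 5. Col1a1 was at 0.362, 0.78, 5.53, 0.138 and 0.319 TPM, Col1a2 at 2.87, 6.74, 1.74, 0.753 and 1.92 TPM and Pdgfra at most 0.512 TPM. Of 4 endothelial markers Pecam1 and Kdr stayed under 1 TPM, Cdh5 reached 1.42 TPM, and Tek was at 0.126, 0.34, 0.48, 62.3 and 0.334 TPM, high in line 4 alone. The leukocyte markers Ptprc and Adgre1 were under 1 TPM throughout, and Csf1r reached 3.05 TPM in line 4. All 3 adipocyte markers (Adipoq, Plin1 and Cidec) were under 1 TPM. The defining Schwann cell markers summed to 2.66 to 5.10 TPM, those of mural cells to 5.73 to 25.3 TPM and those of cardiac cells to 0.0634 to 2.40 TPM. The full Schwann and glial list of 9 genes summed to 40.4 (line 4) to 340.1 TPM (line 2), mostly the Erbb3 given above, with 4 members under 1 TPM in all 5. The full list of smooth muscle and pericytes, 13 genes, summed to 7779 (line 4) to 12852 TPM (line 7), mostly Acta2 and Des, with 4 members under 1 TPM in all 5. The full endothelial list of 9 genes summed to 2.40 to 63.4 TPM, that of leukocytes (11 genes) to 6.35 to 20.5 TPM, that of adipocytes (8 genes) to 2.16 to 16.8 TPM and that of cardiac cells (9 genes) to 8.86 to 32.8 TPM. Each of these 4 lists had 5 or 6 members under 1 TPM in all 5 libraries. The part of other cell types in the differences between lines was not tested. Scx, of tendon, was at 363, 314, 143, 178 and 291 TPM, but it lies within Bop1 (mm10 chromosome 15, 76452989 to 76477277) and the kit does not keep strand, so its reads may come from either gene. Tnmd, the other tendon marker, was near 0, and the full list of 8 tendon and cartilage genes summed to 161.1 to 388.8 TPM, mostly Scx. In bulk RNA, fewer cells of a type and less RNA per cell cannot be told apart.

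Xist, which marks an inactive X, was at most 0.022 TPM, and the Y-linked Ddx3y was at 52.9, 93.4, 97.5, 65 and 62.7 TPM in the same libraries. Of 23 positional genes 12 were at 1 TPM or more in all 5, led by Tbx15 (116, 230.0, 165, 58.7 and 133 TPM), Lbx1 (80.9, 117, 55, 58.9 and 8.27 TPM), a factor of migrating limb muscle precursors, and Hoxc10 (71.3, 46.8, 46.7, 72 and 46.3 TPM). Hoxa9 (13.8, 13.9, 13.6, 15.5 and 14.4 TPM) and Hoxc9 (11.9, 14.8, 12.3, 14.7 and 11.8 TPM) were nearly even over the libraries, while Hoxa11 was at 13.5, 18.9, 18.6, 2.29 and 16.9 TPM. Lbx1 was low in line 7 alone.

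A minority of genes varied widely over the 5 libraries. Of 8870 genes whose mean reached 10 CPM (scaled by TMM, a method that equalises libraries on most genes), 2630 differed at least 2 times between the highest and lowest library (29.7%) and 895 at least 4 times (10.1%). Without line 4, 1372 (15.5%) and 307 (3.46%) of the same genes did. Among genes that differed at least 4 times, line 4 was highest for 337 and lowest for 430. The median SD of log2(CPM + 1) was 0.252, and edgeR's biological coefficient of variation was 0.390 over the 5 libraries and 0.300 without line 4. The 10 steadiest of 7747 genes at 10 TPM and 10 CPM or more had an SD of 0.0153 to 0.0345. They were Clint1 (vesicle traffic), Eif4e2 (binds mRNA caps), Mrpl18 (mitochondrial ribosome), Anapc11 (mitotic ubiquitin ligase), Usp7 (deubiquitinase), Ambra1 (autophagy), Pkn2 (kinase), Dkc1 (RNA modification), Bsdc1 and Lzts2. Clint1 was at 69.6, 63.1, 74.9, 63.9 and 68.9 TPM and Bsdc1 at 40.7, 39.2, 43.1, 38.8 and 40.1 TPM. The next gene in the ranking had an SD of 0.0351.

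Among 32 genes often used as references, 17 had an SD below the median of the 8870 genes at 10 CPM or more. Of the 32, 4 differed at least 2 times, against 29.7% of the 8870. Eef1a1 (7300.2, 6869.7, 8899, 7052 and 7148 TPM) lay in the steadiest 3.69% of those 8870 genes, followed by Tbp and Vcp. In the same ranking Actb stood at 86.5%, Gusb at 87.7% and Pgk1 at 88.3%, all with line 4 highest. Pgk1 was at 866, 1289, 977, 2141 and 667 TPM. Of 28 ribosomal protein genes, 22 were highest in line 4 and 1 differed at least 2 times, against 34.7% and 29.7% of the 8870 genes.

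The 10 most variable genes had an SD of 2.97 to 3.59, and line 4 was highest for 9 of them. Serpinb2, an inhibitor of plasminogen activators, was at 0, 0, 0.252, 346 and 0.0446 TPM. The matrix protease Mmp10 was at 0, 0.062, 0.0572, 363 and 0.122 TPM and Fbln2, a matrix protein, at 0.243, 0.184, 7.94, 229 and 1.17 TPM. The surface receptors Tnfrsf9 and Selp were at 0.743, 0.706, 0.326, 257 and 0.077 and 8.11, 0, 9.08, 271 and 1.09 TPM. Adam8, a membrane protease, was at 2.18, 2.44, 1.19, 268 and 1.56 TPM and Ccn2, a matrix signal also known as CTGF, at 8.73, 4.21, 4.2, 701 and 21.8 TPM. Xirp2, of the intercalated disc, was at 8.05, 1.75, 6.39, 284 and 1.71 TPM and Fggy, a carbohydrate kinase, at 19.3, 13.2, 11.7, 1333 and 4.65 TPM. The exception was Grb10, an imprinted adaptor that dampens insulin signalling, at 2.42, 143, 9.96, 0.598 and 0.6 TPM with line 2 highest.

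**Figure D3:**
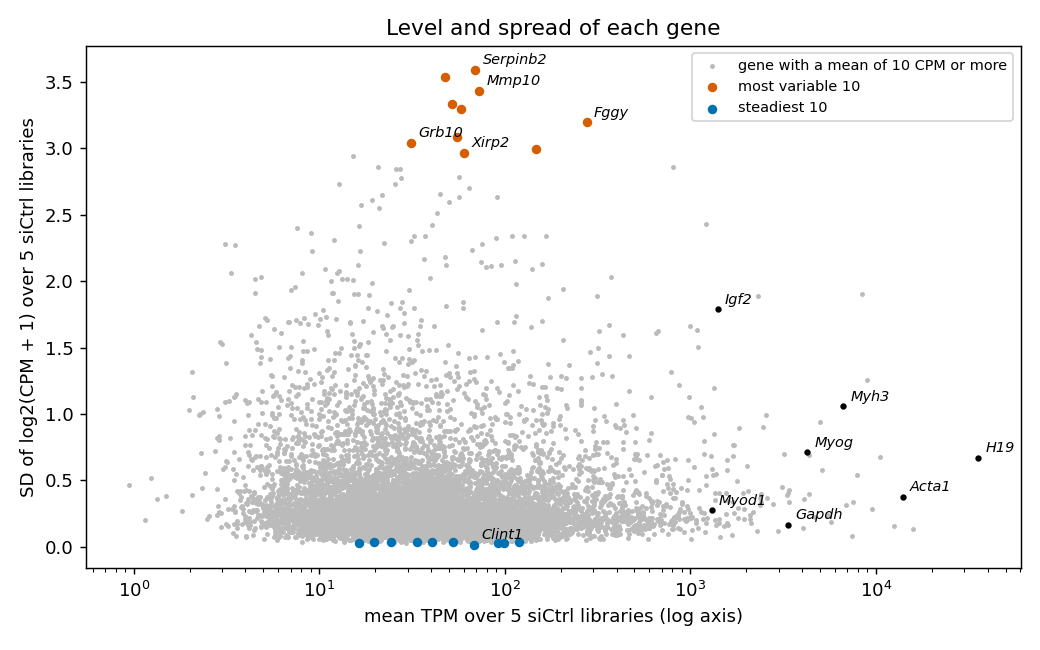
Mean TPM over 5 siCtrl libraries (log axis) against the SD of log2(CPM + 1) over the same libraries, 1 point per gene whose mean reached 10 CPM. The 10 steadiest genes lie at 0.0153 to 0.0345 and the 10 most variable at 2.97 to 3.59, while H19, Igf2 and Myh3 combine a high level with a wide spread.

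Whether a siCtrl library that stood apart did so again in its line was tested in the 10 knockdown libraries. Genes ranked by level, spread or gap were ranked on siCtrl values alone. The gene lists and the naming rule, however, were chosen with earlier results of these data known, so list counts in the knockdown libraries are not independent of them. edgeR's quasi-likelihood test, with the small interfering RNA as a covariate, called 4916 of 16782 genes (29.3%) as different among the 5 lines at a Benjamini-Hochberg adjusted p under 0.05. The 10 most variable siCtrl genes were called, whereas the 10 steadiest had edgeR adjusted p from 0.29 to 0.97. Against the other 4 lines, 210 genes were called for line 1, 1493 (8.9%) for line 2, 1480 (8.82%) for line 3, 5105 (30.4%) for line 4 and 1467 (8.74%) for line 7. With the mean of its siRNA group subtracted, a siCtrl library correlated at 0.393 to 0.960 (median 0.883) with the libraries of its own number and at -0.655 to 0.385 (median -0.144) with those of other numbers. This is Pearson's r of log2(TPM + 1) over 7898 genes for 10 and 40 pairs, as a description, since the genes share annotation and libraries. Deviations within a group sum to 0, so a positive own value by itself pushes the values of other numbers below 0. The lowest own value was that of the siSirt1 library of line 1; without it the lowest was 0.698. Of genes whose siCtrl library lay at least 2 times above the next, 4 of 5 were called higher in line 1, 17 of 18 in line 2, 12 of 12 in line 3, 289 of 295 in line 4 and 24 of 25 in line 7. Background shares for higher calls were 0.834%, 5.4%, 5.23%, 16.8% and 4.98%, over all genes tested and not over genes of like level or gap. The mean that admitted a gene includes its high library. Genes near 0 elsewhere, among them some of the 10 most variable, could enter through that library alone. They could also pass the filter on low counts through the knockdown libraries of the same line, so such higher calls were partly fixed in advance. For genes at least 2 times below the next library the counts were 0 of 5, 31 of 34, 6 of 12, 318 of 333 and 20 of 21, with background shares of 0.417%, 3.5%, 3.59%, 13.7% and 3.77%.

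Line 1 was marked by Alox5 (5-lipoxygenase) at 156, 2.23, 30.8, 11.9 and 1.86 TPM and by Isyna1, which makes inositol, at 48.9 TPM against at most 24.4 TPM in the others. In the knockdown libraries of line 1, Alox5 was at 88.5 and 65.3 TPM (log2 fold change 3.43, SE 0.32, edgeR adjusted p = 0.0037). Isyna1 was at 37.5 and 44.8 TPM (log2 fold change 3.42, SE 0.24, edgeR adjusted p = 0.00074). Prrg4 and Rrad were also called higher, at edgeR adjusted p = 0.031 for each, and Nmrk2 was not. Without the siLmod1 library of line 1, Alox5, Prrg4 and Rrad were not called, while Isyna1 was. The 5 genes lowest in siCtrl line 1, Lmcd1, Rap1gap2, Stc2, Hspb8 and Amotl1, were not called, with edgeR adjusted p from 0.058 to 0.48. DESeq2 called Lmcd1, Hspb8 and Amotl1 lower in line 1, and edgeR with no filter on low counts called these 3 and Stc2. Lmcd1, a regulator in muscle growth, was at 3.71, 207, 74.1, 312 and 40.1 TPM in siCtrl, and in line 1 at 1.93 TPM in siLmod1 but 24.7 TPM in siSirt1. For Hspb8, a small heat shock protein, the values of line 1 were 48.6 TPM in siCtrl and 50.2 and 90.8 TPM in the knockdowns.

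Line 2 stood apart in a group of imprinted genes. Meg3 and Rian, noncoding RNAs of 1 imprinted cluster on chromosome 12, were at 2.31, 50.5, 3.53, 2.37 and 4.53 and 0.497, 69.1, 2.37, 0.207 and 3.73 TPM, and Mirg, further along it, at 0.0979, 13, 0.364, 0.0828 and 0.978 TPM. Line 2 was the high library for all 3. In the knockdown libraries of line 2, Meg3 was at 26.9 and 47.9 TPM (log2 fold change 3.80, SE 0.24, edgeR adjusted p = 0.0002), and Rian was called too (log2 fold change 5.84, edgeR adjusted p = 0.0013). Grb10 on chromosome 11 was called higher (log2 fold change 6.09, edgeR adjusted p = 0.00025), and the imprinted Ndn was at 16.6, 37.8, 2.77, 1.85 and 2.84 TPM in siCtrl. Of 17 imprinted genes tested, 9 were called higher in line 2 and 1 lower, against 5.4% and 3.5% of all genes, with a median log2 fold change of 1.08 against 0.01 over all genes. Line 4, which is part of the mean that line 2 was set against, had 12 of the 17 called lower. Its low values can add to the contrast of line 2. Prr32 (5.89, 427, 2.22, 4.53 and 15.9 TPM) and Arhgef6 (15.8, 56.6, 9.08, 2.18 and 13.5 TPM) completed the 5 highest, and both were called. Sim2, a transcription factor that represses MyoD in limb muscle, had 0 counts in siCtrl line 2 and 0 TPM in both of its knockdown libraries. In siCtrl it stood at 11.6, 0, 12.5, 26.6 and 7.88 TPM, at least 87.6 times the floor of 3 counts of line 2 in the other libraries. Rtl8b (40.6, 0.866, 56.7, 28.7 and 47.5 TPM), Anxa3 (32.7, 0.117, 25.2, 46.7 and 6.33 TPM), Eogt and Gria3 were the other low genes, and all 5 were called lower (edgeR adjusted p = 0.00036 to 0.0049). Gria3 was not called when either line 2 library was left out.

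From the start of Meg3 to the end of Mirg (mm10 chromosome 12, 109541001 to 109749460) RefSeq lists 112 mature miRNAs of 60 genes, with 102 different seeds. The 3 shown are spread along that span and illustrate its content, with the seed in capitals (GRCm38.p6, + strand, chr12:109592888-109592909, chr12:109709065-109709085 and chr12:109743764-109743784).
miR-127-3p: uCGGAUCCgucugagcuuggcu
miR-379-5p: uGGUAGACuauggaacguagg
miR-410-3p: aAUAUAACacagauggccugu
The precursor of miR-410 lies inside Mirg. Their own levels were not measured.

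Line 3 had the highest Igf2. The knockdown libraries of line 3 held 5417 and 4295 TPM (log2 fold change 3.02, SE 0.16, edgeR adjusted p = 0.00011). The other 4 genes farthest above were Map1a (binds microtubules, 3.11, 3.73, 57.8, 2.92 and 5.37 TPM), Gpx3 (a secreted peroxidase, 35.7, 43.5, 551, 6.82 and 60.7 TPM), Heyl (a Notch target, 4.65, 3.4, 44.2, 0.197 and 5.29 TPM) and Atp1b2, and all 5 were called. Low in line 3 were Tagln (transgelin, 31.4, 47.7, 9.46, 32.1 and 103 TPM), Nrap, and the cell cycle genes Ccna2 (9.93, 9.28, 2.63, 7.64 and 25.4 TPM), Top2a (12.3, 13.4, 3.84, 9.19 and 35.4 TPM) and Tpx2 (12.1, 10.5, 3.73, 37.8 and 27.1 TPM). Of these, Tagln, Ccna2 and Nrap were called lower in the knockdown libraries, whereas Tpx2 and Top2a had edgeR adjusted p = 0.075 and 0.0503. DESeq2, and edgeR with no filter, called both of them lower. When either line 3 library was left out, Tagln, Ccna2, Nrap and Heyl were not called, and Atp1b2 was not called without the siSirt1 one. Of 30 mitosis and replication genes 4 were called lower in line 3, against 3.59% of all genes, with a median log2 fold change of -1.16. In line 7, 10 of these 30 were called higher, against 4.98% of all genes, with a median of 0.94. Of 19 interferon response genes tested, 10 were called higher in line 3, against 5.23% of all genes. Their levels were low: Isg15 was at 1.42, 0.141, 9.64, 0.399 and 0.693 TPM and Rsad2 at 3.27, 0.518, 6.8, 2.18 and 1.57 TPM, while the abundant B2m was at 536, 319, 753, 363 and 546 TPM.

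Line 7 had the lowest Myf5. In its knockdown libraries Myf5 was at 3.24 and 3.73 TPM (log2 fold change -4.62, SE 0.26, edgeR adjusted p = 0.00016). Lbx1 was at 6.67 and 8.38 TPM there (log2 fold change -2.52, SE 0.25, edgeR adjusted p = 0.002). Atg9b, of the autophagy pathway, and Aebp1, a matrix protein, were called lower as well. The genes farthest above in line 7 were Nid2 (a basement membrane protein, 95.6, 102, 123, 30.1 and 359 TPM), Adamts1 (30.6, 14, 13.2, 6.18 and 86.2 TPM), Dmrt2 (12.7, 8.91, 12.9, 3.64 and 37.1 TPM), the water channel Aqp1 (12.5, 4.67, 6.97, 9.15 and 52.9 TPM) and AW551984, and all 5 were called higher. Aqp1 was uneven in the knockdown libraries of line 7, at 10.7 TPM in siLmod1 and 196 TPM in siSirt1. Aqp1 and Dmrt2 were not called without the siSirt1 library of line 7, nor AW551984 without its siLmod1 library. Of 38 matrix genes tested, 14 were called higher in line 7 and 2 lower, against 4.98% and 3.77% of all genes.

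Line 4 differed from the others far more widely. In its knockdown libraries 5105 genes were called, 2812 higher (16.8%) and 2293 lower (13.7%). Among sarcomere and cytoskeleton genes calls went both ways, with more lower than higher ones. Lower calls were 7 of 8 troponins, 16 of 20 calcium handling genes and 16 of 30 Z-disc, M-band and thick filament genes, with median log2 fold changes of -1.63, -1.73 and -1.15 against 0.01 over all genes. Another 5 of those 30 were called higher (Xirp2, Nebl, Xirp1, Ankrd1 and Klhl41). Myosin heavy chains had 3 higher and 4 lower calls among 13, actins 2 higher and 3 lower among 6, tropomyosins 1 of each among 4, and light chains 4 lower among 9. The higher calls of these families were Myh9, Myh10, Myh14, Actb, Actg1 and Tpm4, which are nonmuscle forms of the cytoskeleton. Myog was called lower (log2 fold change -1.77, SE 0.28, edgeR adjusted p = 0.0019), as were Mymk (-1.95, edgeR adjusted p = 0.00016), Mef2c (edgeR adjusted p = 0.00033) and Actc1 (-2.86, edgeR adjusted p = 0.0013). Myf5 was called higher (log2 fold change 3.50, edgeR adjusted p = 2.5e-06), and so were Itga7 (2.06, edgeR adjusted p = 3.1e-05) and Fgfr1 (1.93, edgeR adjusted p = 1.1e-05). Lists of such genes went both ways. Of 18 quiescence and satellite cell genes tested 7 were called higher and 6 lower. Of 35 growth factor receptors 7 were called higher and 19 lower, and of 15 integrins 4 and 5. Myod1 was not called. Of 17 imprinted genes 12 were called lower and 0 higher. Low genes farthest from the rest in siCtrl were the collagens Col6a1 (60.8, 58.7, 64.2, 0.367 and 65.7 TPM) and Col18a1 (91.1, 78.7, 119.5, 2.11 and 87.4 TPM), Vcan (10.7, 11.8, 19.7, 0.535 and 27.4 TPM), Mgp (97.8, 39.9, 105, 2.12 and 234 TPM), an inhibitor of calcification, and Sox8 (15.5, 33.3, 37.1, 0.806 and 34.4 TPM), all 5 called lower. For Col6a1 the siSirt1 library of line 4 was nearer to the other lines, at 10.7 TPM against 0.826 TPM in siLmod1. Serpinb2, Mmp10, Tnfrsf9, Adam8 and Fggy were all called higher, with edgeR adjusted p from 3.9e-08 to 4.9e-06. The first 4 were near 0 or low in the other siCtrl libraries and met the level limits through line 4 alone. They could pass the filter on low counts in the same way, so these calls were partly fixed in advance.

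**Figure D4:**
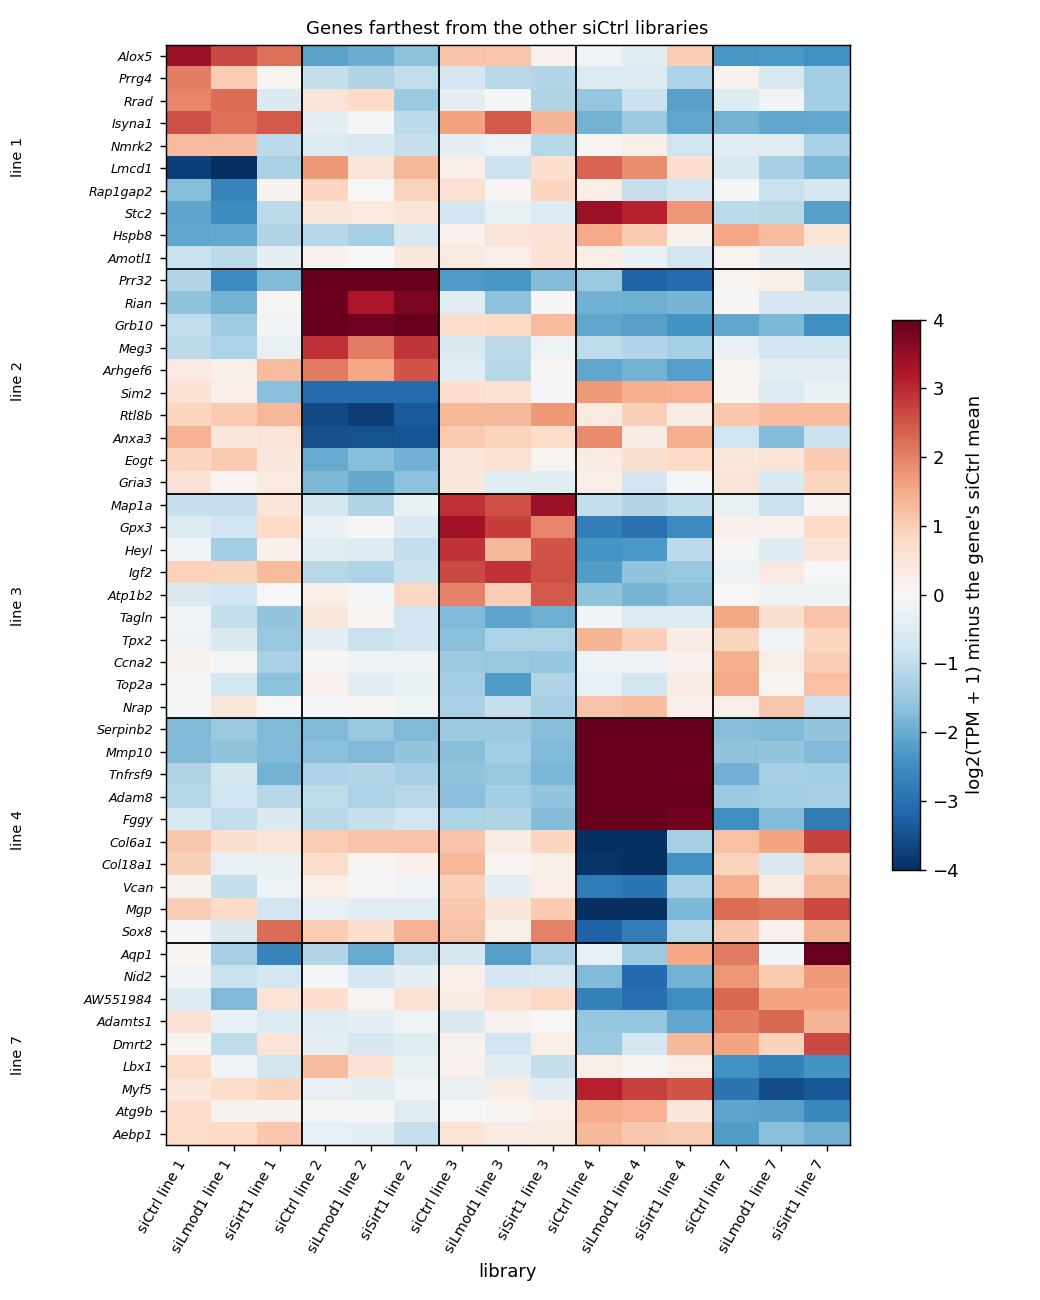
Genes farthest above (first 5 of each block) and below (the rest of the block) the other siCtrl libraries, by line, in all 15 libraries; colour is log2(TPM + 1) minus the gene's mean over the 5 siCtrl libraries, with the scale ending at -4 and 4. The knockdown libraries mostly carry the colour of the siCtrl library of their own line, less so for the low genes of line 1 and, in the siSirt1 library of line 4, for Col6a1 and its neighbours in the plot.

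A stretch of chromosome 4 was high in line 4 gene after gene. Protein-coding genes whose mean over the 5 siCtrl libraries reached 1 CPM were ordered along each chromosome. Runs of neighbours at least 4 times above the median of the other 4 siCtrl libraries were sought. This scan was chosen after the values were seen. The mean includes the scanned library, so genes near 0 elsewhere could enter through it, which can raise its 4-fold count and lengthen its runs. In line 4, 327 of the 11893 genes scanned (2.75%) passed the 4-fold limit, and 10 of them formed 1 unbroken run. Of these, Lrrc19 (0.334, 0.0375, 0.242, 6.43 and 0.0368 TPM) was close to 0 outside line 4. It lies within Ift74, another gene of the run, and the kit does not keep strand, so its reads may come from either gene. In lines 1, 2, 3 and 7, where 0.235%, 0.353%, 0.597% and 0.244% passed, no run held more than 2 genes. The run spans 1525 kb (mm10 chromosome 4, 94500081 to 96025413) and holds Caap1, Plaa, Ift74, Lrrc19, Tek, Eqtn, Mysm1, Jun, Fggy and Hook1.

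The 10 genes have varied known roles. Jun, a subunit of the transcription factor AP-1, was at 149.9, 111, 129.8, 5523 and 175 TPM. Plaa, a ubiquitin-binding protein, was at 77.7, 71.5, 84.1, 1565 and 59.9 TPM and Mysm1, a histone deubiquitinase, at 13.5, 11.8, 16.6, 341 and 14.3 TPM. Ift74, of the cilium, was at 29.3, 21.7, 32.8, 689 and 24 TPM and Caap1, linked to apoptosis, at 6.82, 5.94, 7.62, 209.6 and 7.18 TPM. In each of these the line 4 value lay far above the other 4 libraries, which were close together. Hook1, a microtubule linker, was at 1.52, 0.628, 1.05, 99.5 and 0.744 TPM, and the angiopoietin receptor Tek, the endothelial marker given above, is also part of the run. Line 4 exceeded the median of the other siCtrl libraries by 8.34 times (Eqtn) to 143 times (Tek), on TPM + 0.1.

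The knockdown libraries of line 4 showed the same stretch. Jun was at 5115 TPM in siLmod1 and 5252 TPM in siSirt1 (log2 fold change 4.71, SE 0.12, edgeR adjusted p = 9.8e-08), and Plaa at 1838 and 1748 TPM (log2 fold change 4.61, SE 0.10, edgeR adjusted p = 5.4e-08). Other members were less even over these libraries. Fggy was at 1298 and 448 TPM and Tek at 58.0 and 29.7 TPM, lower in siSirt1, whereas Caap1 was at 177 and 353 TPM, higher in siSirt1. All 10 genes of the run were called higher, with log2 fold changes from 3.61 to 6.86, and so were all 22 annotated genes of the stretch that could be tested. Some of the 22 overlap: Gm12657 lies within Plaa and Junos overlaps Jun, so their reads may come from either gene. A gene near 0 elsewhere could pass the filter on low counts through line 4 alone, so such calls were partly fixed in advance. Gm12703, for example, was at 21.9 and 8.97 TPM in the knockdown libraries of line 4 and at most 0.0581 TPM in those of other lines. The stretch took 1.40% of counts in siCtrl line 4 and 1.45% and 1.27% in its siLmod1 and siSirt1 libraries, against 0.0349% to 0.0589% in the other 12 libraries. Its edges are not sharp. Just before it the predicted gene Gm12655 was at 1.98, 1.22, 1.33, 32.7 and 15.2 TPM, high in line 7 too, and just after it Cyp2j13 was at 3.04 TPM in line 4 and at most 0.0210 TPM in the others. Cyp2j6, further on, was at 13.9, 6.24, 13.8, 22.4 and 11.1 TPM and was called higher in line 4 with a smaller log2 fold change of 1.68 (edgeR adjusted p = 0.00029). Tusc1, the nearest measured coding gene before it, was lowest in line 4 (15.2, 4.27, 8.31, 4.1 and 5.42 TPM), and Nfia, further on, was called lower (log2 fold change -1.37, edgeR adjusted p = 0.00051). DNA copy number was not measured in these libraries, and what sets this stretch apart was not tested. A run in the other direction held 5 genes of the X chromosome (106420041 to 107403376): Fndc3c1, Rtl3, Lpar4, P2ry10b and Itm2a. Itm2a, a membrane protein of developing muscle, was at 746.3, 1022, 1790.2, 102.2 and 1749 TPM, and all 5 were called lower in line 4.

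**Figure D5:**
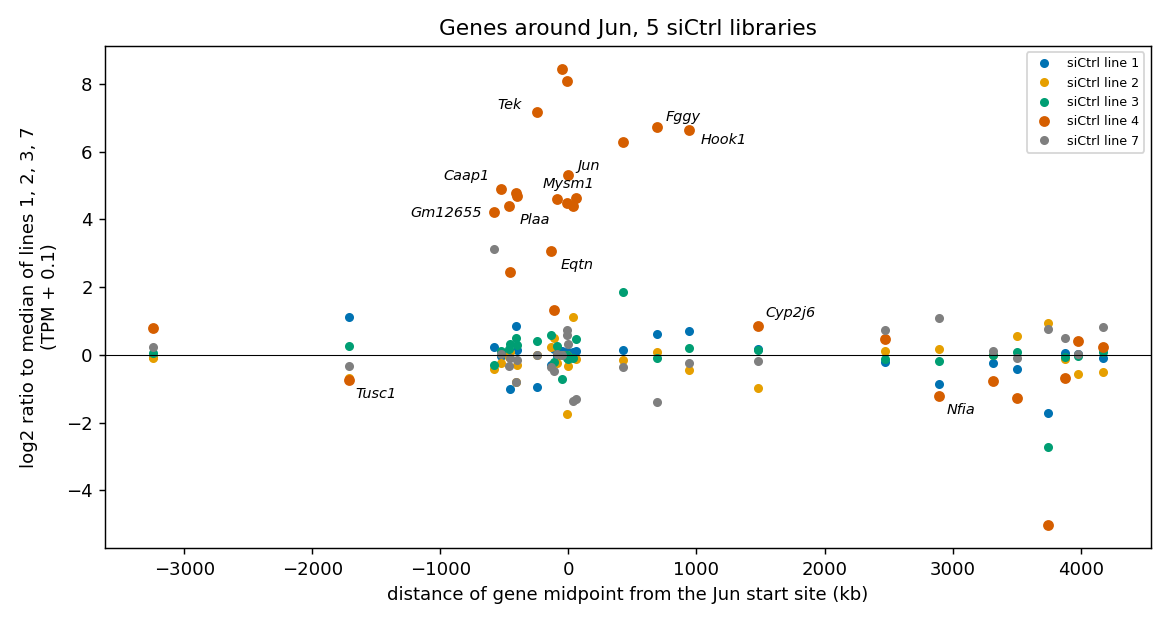
Log2 ratio of each siCtrl library to the median of lines 1, 2, 3 and 7 (TPM + 0.1) for genes around Jun that reach 5 TPM in at least 1 siCtrl library, by distance of the gene's midpoint from the Jun start in kb. Line 4 (dark orange) lies above the others from Caap1 to Hook1 and also at Gm12655, but below the median at Tusc1 and Nfia.

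Jun pairs with Fos proteins to form AP-1, which binds TGANTCA. Because Jun was 1 of the genes that set line 4 apart, promoters of the most variable genes were searched for that motif, which reads the same on both strands. Of the 10 most variable genes 9 have a RefSeq promoter window, and 5 of these hold it: Mmp10, Selp, Serpinb2, Tnfrsf9 and Xirp2. Counted by window, as a gene can have several, these are 6 of 13 (46.2%). The motif occurs in 7.81% of all 32851 windows, and in 4.68% of 7965 windows of genes at 10 TPM and 10 CPM or more, where 351 of 6211 genes hold it. Line 4 lay at least 4 times above the next siCtrl library for 97 genes; 72 of these have windows, and 15 of the 72 genes, or 19 of their 110 windows (17.3%), hold it. A match describes these letters, not a binding site. Both gene sets were picked by these same siCtrl values, and a role of Jun in their levels was not tested. The windows of Serpinb2 (chr1:107511173-107511472) and Mmp10 (chr9:7502092-7502391), both + strand of GRCm38.p6, are shown as those of the genes with the widest gap, with the motif in capitals.
Serpinb2 promoter: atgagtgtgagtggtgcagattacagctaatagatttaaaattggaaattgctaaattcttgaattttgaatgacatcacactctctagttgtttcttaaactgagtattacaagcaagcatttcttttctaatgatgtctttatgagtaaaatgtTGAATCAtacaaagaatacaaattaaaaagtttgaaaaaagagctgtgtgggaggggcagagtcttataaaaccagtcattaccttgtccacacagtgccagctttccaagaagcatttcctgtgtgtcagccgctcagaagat
Mmp10 promoter: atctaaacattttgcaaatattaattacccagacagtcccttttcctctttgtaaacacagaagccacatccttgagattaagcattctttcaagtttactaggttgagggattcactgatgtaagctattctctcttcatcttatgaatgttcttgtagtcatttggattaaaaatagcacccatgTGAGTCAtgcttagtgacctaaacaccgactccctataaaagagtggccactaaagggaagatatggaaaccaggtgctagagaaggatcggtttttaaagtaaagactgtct
The matches start 94 and 63 bases before the gene starts.

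Of 13 mitochondrially encoded genes, 7 were above 1000 TPM in all 5 libraries and the other 6 were under 100 TPM, with a highest value of 82.1 TPM. How reads with several matches in the genome were counted is not given in the sources used here, so these levels, and the share of 1.92% to 2.73% above, are uncertain. The short models Gm23935 and Mir6236 reached 25635 and 7413 TPM in line 4 and 893 and 271 TPM in line 3. Together they held 0.0778% of counts in line 4 but 3.30% of its TPM, and Gm23935 falls under the predicted models left out of the 25 most abundant genes.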

How the data were processed

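Polyadenylated RNA of 15 libraries was sequenced after a TruSeq v2 preparation, per the labels' protocols; it keeps no strand, so reads of overlapping genes cannot be told apart. The authors deposited raw counts per Ensembl gene and TPM values, which scale counts by gene length and library. The submitters' processing notes name DESeq2 and the build mm10. Aligner, counter and annotation release: not given in the sources used here. All 15 libraries were identical in the 2 tables that hold them. Of 49315 gene IDs, 48970 had a symbol and coordinates in GENCODE M21. The deposited normalized counts were not used, and results on some genes are not reported here.

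The siCtrl libraries held 26097889 to 33601761 counts, and the floor of 3 counts speaks to counting error alone because reads may be PCR copies of 1 molecule. CPM were scaled by TMM in edgeR 4.0.16 (R 4.3.3), and tables were made in Python 3.11.15 (pandas 2.3.3). Lines were compared in the 10 knockdown libraries only, with 4 residual degrees of freedom: filterByExpr, TMM, edgeR's quasi-likelihood F test on line and group, and Benjamini-Hochberg adjustment over all genes of a contrast, after the script was tested on simulated data. The p-values set differences between lines against the spread between the siLmod1 and siSirt1 libraries of the same line, with the mean group difference removed. That spread may be technical in part, and the p-values speak to these lines alone. DESeq2 1.42.0, RLE scaling, no filter and leaving out each library were alternatives.

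The genes named were the 25 with the highest mean TPM; the members at 1 TPM or more of the actin, myosin, troponin, tropomyosin, tropomodulin and sirtuin lists; up to 5 of each other list; the 10 steadiest and 10 most variable; 5 above and 5 below the rest per line; and a fixed set of markers. The members and the 38 gene lists, written from general knowledge, were chosen with earlier results of these data known. Genes named beyond this rule, the chromosome 4 stretch and the promoter search were chosen after the values were seen.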

Additional observations from a re-analysis of the deposited data

Results flagged for a closer look

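Library measures, the 25 most abundant genes and the fixed marker genes were checked for a siCtrl library far from the other 4, 47 measures in all; by chance about 1 in 20 groups is picked out this way, and 7 were. Genes chosen for their gap in 1 line were not put through this check, except where they belong to the fixed set. Line 3 had 23192 genes with a count against 22125 in the next library, and it also had the largest total, 33601761 counts. Eef1a1 was at 8899 TPM in line 3, with 7300 TPM next. Rps12 (6478 TPM, next 4299) and Vim (6012 TPM, next 2605) were high in line 4. Myf5 was at 422 TPM in line 4, with 65.3 TPM next. Col1a1, the fibroblast collagen, was at 5.53 TPM in line 3, with 0.780 TPM next. Igf2 was at 4541 TPM in line 3, with 1368 TPM next. For each of these the cause was not tested.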

How the results depend on the processing

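No paired analysis was possible because the shared numbers are themselves what was compared between libraries, and no siRNA groups were compared. RLE scaling kept each count within 1.5 times. Without the filter on low counts, 741, 2446, 2304 and 2370 genes were called for lines 1, 2, 3 and 7 (210, 1493, 1480 and 1467 with it), and by DESeq2 766, 2378, 2253 and 2471; line 4 had 5105, 5425 and 5505. With all 15 libraries 10136 genes differed among lines, against 4916. Leaving out 1 knockdown library gave 3190 to 4874 genes among lines, 20 to 280 for line 1, 110 to 2211 for line 2, 84 to 1944 for line 3, 2617 to 5519 for line 4 and 244 to 1916 for line 7; the lowest count of lines 1, 2, 3, 4 and 7 came without the siSirt1 library of that line, where the lone siLmod1 library is assumed to vary like the others. The lowest count among lines came without the siSirt1 library of line 2. All 10 genes of the chromosome 4 stretch were called in each of these fits except the one with all 15 libraries, where they were not counted. Of the 650 values of the line genes under alternatives, 601 kept their side of the threshold, 27 lost a call, 21 gained one and 1 reversed: Nmrk2 in line 1 went to -0.11 without siLmod1 replicate 1. The lost calls were of Alox5, Prrg4, Rrad, Gria3, Heyl, Atp1b2, Tagln, Ccna2, Nrap, Aqp1, AW551984 and Dmrt2, each without 1 knockdown library. The gained calls were of Lmcd1, Hspb8, Amotl1, Tpx2 and Top2a by DESeq2 (adjusted p from 2.85e-07 to 0.0397) and without the filter, of Nmrk2 and Stc2 without the filter, and of Hspb8, Tpx2 and Top2a also without 1 knockdown library of another line.

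In siCtrl, the threshold of 0.5 or 5 TPM gave 13349 or 8868 genes in all 5 libraries, and leaving out a library 12096 to 12516. The 10 and 100 most abundant genes took 13.1% and 33.9% of TPM; by counts the 50 most abundant took 17.8%, and leaving out a library gave 26.2% to 27.6%. With a mean of 1 or 50 CPM or more, 5322 or 1120 genes differed at least 2 times and 2260 or 327 at least 4 times. Leaving out a library gave 1322 to 2530 and 284 to 887, the lowest without line 4, with the level limit also set without it, and a coefficient of variation of 0.300 to 0.418 (0.498 with no filter). Depth limits only genes near the floor.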
